A study of Mus musculus with 6 samples.

Results

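The 35 genes described here encode proteins that carry cells through mitosis: CDK1 and its cyclins, the Polo and Aurora kinases, the spindle checkpoint, kinetochore proteins, spindle motors, the cytokinesis machinery, and 2 proteins of the mitotic chromosome. They were chosen by name, and all 35 were found in the deposited table of 15487 genes by their symbols. The RNA is that of tumour-associated macrophages, isolated on day 15 with a flow sorter from CT26 tumours (CT26 is a mouse colon carcinoma line). There were 3 libraries from tumours labelled Sg-C3, read here as carrying a guide RNA against complement C3, and 3 from tumours labelled Sg-Con, read here as carrying a control guide. All 6 samples are labelled BALB/C and wild type, and the guide is named with the tumour line, so no measurement on macrophages can check the targeted gene; the titles of 2 Sg-C3 libraries read C3KO. Whether the tumour lines are clones, how many mice stand behind a library and whether libraries of 1 group are from different mice is not in the labels. The p-values below therefore describe the spread between libraries, which may be technical.

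The genes of mitosis are nearly silent in resting cells and are switched on as a cell passes from DNA replication into G2. In resting cells the DREAM repressor complex holds them down, and in dividing cells the activators B-MYB and FOXM1 replace it. Both act through a short promoter element called the cell cycle genes homology region (CHR), often next to CCAAT boxes that bind NF-Y. Macrophages of tumours are replenished by blood monocytes and also by division in the tissue. RNA of these genes in a sorted sample would come mainly from those of its cells that are in cycle, which were not measured here.

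Values are FPKM (fragments scaled to gene length and library size), as deposited. Libraries summed to between 474579 and 487358 FPKM, and the steps of the low values put the estimated depth at 17.8 to 19.4 megareads per library. Pearson's r across genes on the log2 scale was 0.986 to 0.990 between libraries of 1 group and 0.945 to 0.974 between the groups. All 12 macrophage markers on a list were at 9.09 FPKM or more in every library, but 4 of them fell: Cd68, Itgam, Lyz2 and Mertk had 0.556, 0.582, 0.438 and 0.325 of their Sg-Con means in Sg-C3 libraries. That share, 33.3%, was near the 31.7% of all tested genes that were called lower. Csf1r, the receptor for the macrophage growth factor, averaged 324 ± 41 FPKM in Sg-C3 and 402 ± 43.8 FPKM in Sg-Con libraries, with the groups apart but no call (limma adjusted p = 0.0791), and Adgre1, which encodes F4/80, averaged 172 ± 29.8 FPKM in Sg-C3 and 173 ± 11.6 FPKM in Sg-Con libraries (SD, n = 3 each). Each log2 fold change is the Sg-C3 mean minus the Sg-Con mean of log2(FPKM + 1), a scale that understates changes at low FPKM, and a gene is called at a limma adjusted p below 0.05. All ± values are SD over the 3 libraries of a group.

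RNA of nearly every mitosis gene was lower in macrophage samples sorted from Sg-C3 tumours than in those from Sg-Con tumours. Of the 35 genes, 32 fell and 0 rose (limma; 0 also had a higher value at an unadjusted p under 0.05), while 31.7% of all 11198 tested genes were called lower and 12.7% higher. The median log2 fold change was -0.86, against -0.16 over all tested genes, and the middle gene of the 35 had 0.451 of its Sg-Con mean FPKM in Sg-C3 libraries. In 33 genes all 3 Sg-C3 libraries lay below all 3 Sg-Con libraries, as they did in 41.4% of all tested genes. A called log2 fold change of -1 or less was found in 16 of the 35, against 3.65% of all tested genes. The genes that did not pass were Mki67, Cenpa and Aurka. In a sorted bulk sample, fewer cells in cycle and less of this RNA per cell cannot be told apart. Markers of other cell types, described below, also differed between the groups, and the part of such cells was not tested.

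The same direction was found after rescaling the libraries. Median-ratio scaling moved the median of all tested genes to -0.02, and 50.5% of all calls were then lower, compared with 71.5% as deposited. With that scaling 29 of the 35 genes still fell and 0 rose, where 19.0% of all tested genes fell and 18.6% rose, and the median of the 35 was -0.74. The median of the 35 minus that of all genes was -0.70 as deposited and -0.72 after rescaling. Of the 32 genes that fell, 26 also did so in every one of the 13 alternative settings that tested them. All 35 passed the filter of 1 FPKM in 3 libraries, 33 of them with at least 1 FPKM in all 6, so that Cdc25c and Cenpf alone dropped below 1 FPKM, in 2 Sg-C3 libraries each.

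**Figure D1:**
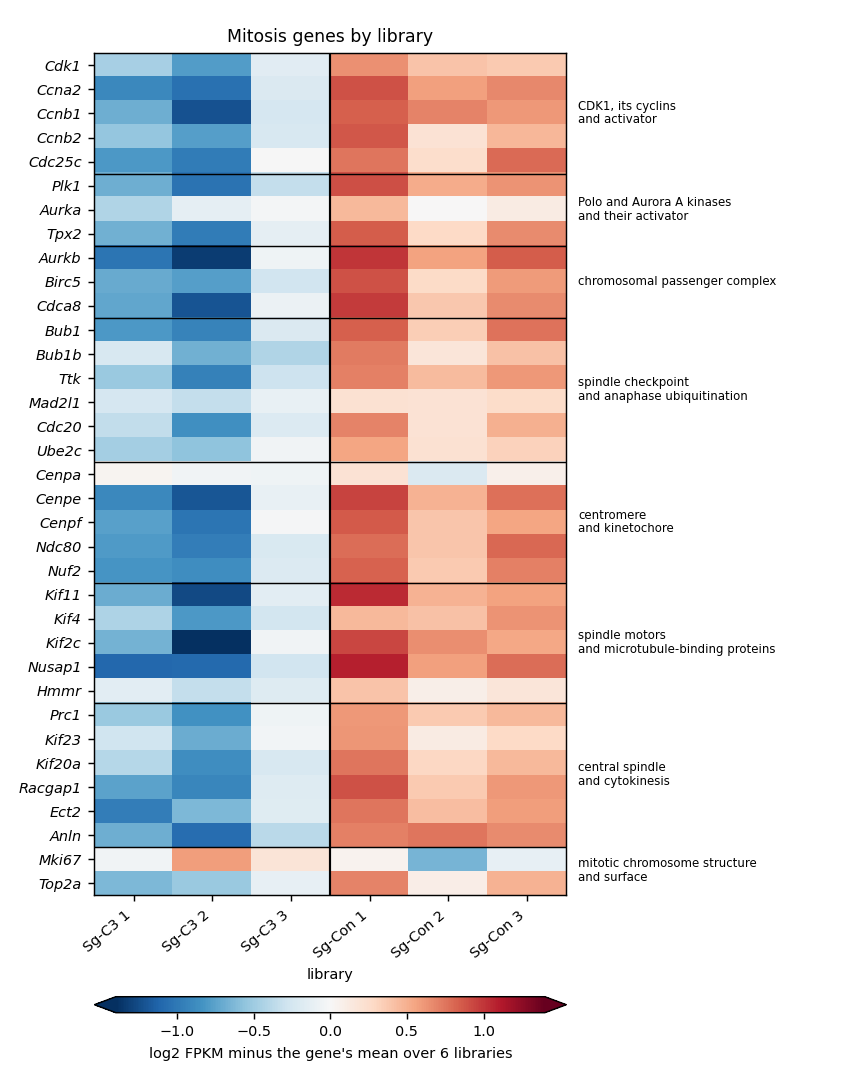
Colours show the log2 FPKM of each mitosis gene minus that gene's mean over the 6 libraries, with genes in rows grouped by role and libraries in columns (Sg-C3 left of the line, Sg-Con right). Blue (below the mean) fills the Sg-C3 columns and red the Sg-Con columns for all but a few genes, with Mki67 running the other way, Cenpa nearly flat, and Sg-C3 replicate 3 paler than the other Sg-C3 libraries.

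The promoters of these genes are shown because most members moved together and share known sequence elements. The RefSeq promoter table (GRCm38.p6, 250 bases before to 50 after the start of transcription) held 30 of the 35 genes. The letters TTTGAA, the core of the CHR, were searched on both strands (TTCAAA on the other), and occurred in 23 of the 30 promoters, or 76.7%, against 18.1% of 27025 promoters in the table. Within 50 bases of the start site they began in 21 of the 30, or 70%, against 4.92% of all. The CCAAT letters, searched on both strands, were in 23 of the 30, or 76.7%, against 37.9% of all, and both sets of letters were in 20, or 66.7%, against 7.12% of all. No match of 1 set overlaps a match of the other in the stretches printed. Each line gives the 120 bases before the start site, 5′ to 3′ on the strand of the gene, with TTTGAA and CCAAT letters of either strand in capitals. The first 5 genes fell in Sg-C3 libraries and are shown because they hold CHR letters wholly within the 50 bases before the start. The closeness of those letters to the start thus follows from the choice. Kif2c and Ect2, which also fell, hold CHR letters farther out in the same 120 bases, at -103 and -114, and are not printed. Mki67 is shown as the member with a positive fold change. Of the 21 members with CHR letters within 50 bases of the start, 6 had them before it (these 5 and Prc1) and 15 at or after it, outside the printed bases.
Cdk1 (chr10:69352913-69353032, minus strand): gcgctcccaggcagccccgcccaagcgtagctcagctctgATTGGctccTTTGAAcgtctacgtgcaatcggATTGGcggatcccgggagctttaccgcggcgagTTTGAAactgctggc
Top2a (chr11:99024190-99024309, minus strand): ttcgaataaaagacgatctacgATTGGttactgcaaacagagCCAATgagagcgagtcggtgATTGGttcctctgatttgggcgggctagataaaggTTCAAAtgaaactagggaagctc
Ube2c (chr2:164769809-164769928, plus strand): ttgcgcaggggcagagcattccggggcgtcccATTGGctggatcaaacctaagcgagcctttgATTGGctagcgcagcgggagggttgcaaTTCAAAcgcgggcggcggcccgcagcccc
Cdc20 (chr4:118437344-118437463, minus strand): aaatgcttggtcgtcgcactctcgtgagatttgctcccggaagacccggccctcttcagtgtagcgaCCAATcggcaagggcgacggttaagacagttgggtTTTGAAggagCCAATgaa
Kif11 (chr19:37376262-37376381, plus strand): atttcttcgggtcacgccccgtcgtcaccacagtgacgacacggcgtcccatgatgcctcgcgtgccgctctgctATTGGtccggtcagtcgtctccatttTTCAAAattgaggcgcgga
Mki67 (chr7:135716380-135716499, minus strand): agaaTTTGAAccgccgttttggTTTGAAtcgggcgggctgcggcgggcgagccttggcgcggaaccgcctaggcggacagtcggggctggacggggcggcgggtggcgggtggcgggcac
In Cdk1, Top2a, Ube2c, Cdc20 and Kif11 a CHR match begins 15 to 29 bases before the start site, at -15, -23, -29, -18 and -19, with CCAAT letters upstream of it at -48, -58, -57, -53 and -45. In Mki67 the CHR letters lie farther out, at -116 and -98, and its CCAAT letters begin at -141 and beyond, outside the printed stretch. The place of the letters did not separate members by their call: Kif2c, which fell, had its only CHR letters at -103 and no CCAAT letters, and 7 members that fell (Birc5, Bub1, Ccnb1, Cenpe, Mad2l1, Nuf2 and Nusap1) had no CHR letters in the window. Cenpa and Aurka, the other genes without a call, hold the letters at 16 and 32 bases after the start. These matches describe letters in a window and do not show which factor was bound.

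CDK1 with its cyclins starts mitosis, and all 5 genes of that step fell. Cyclin A2, encoded by Ccna2, carries cells from S phase into mitosis, and its RNA was at 5.04, 4.55 and 8.17 FPKM in Sg-C3 libraries, against 17.45, 14.03 and 14.99 FPKM in Sg-Con libraries. The highest Sg-C3 value was well below the lowest Sg-Con value (log2 fold change -1.28, SE 0.20, adjusted p = 0.00392). Ccnb1, the main mitotic cyclin, had 3.89, 2.69 and 5.32 FPKM in Sg-C3 libraries and 11.17, 10.11 and 9.54 FPKM in Sg-Con libraries. Its groups were also clearly apart (log2 fold change -1.21, SE 0.19, adjusted p = 0.00431). Cdk1, the kinase itself, averaged 5.67 ± 1.22 FPKM in Sg-C3 and 10.7 ± 1.11 FPKM in Sg-Con libraries (log2 fold change -0.83, SE 0.15, adjusted p = 0.0066), a smaller change than those of its cyclins Ccna2 and Ccnb1 in these values. Ccnb2, a second B-type cyclin, averaged 8.92 ± 1.72 and 18.2 ± 4.29 FPKM in the Sg-C3 and Sg-Con libraries. Cdc25c, the phosphatase that activates CDK1, was among the least abundant members at 0.73, 0.65 and 1.27 FPKM in Sg-C3 libraries, against 2.15, 1.51 and 2.21 FPKM in Sg-Con libraries. Its lowest value stands for an estimated 24 reads, and its call (adjusted p = 0.0185) was lost without Sg-C3 replicate 1 (0.0644), Sg-C3 replicate 2 (0.069), Sg-Con replicate 1 (0.0537) or Sg-Con replicate 3 (0.054).

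Of the kinases that build the spindle, Plk1 fell and Aurka did not pass. Plk1, the Polo kinase needed for centrosome maturation and mitotic exit, was at 3.22, 2.53 and 4.09 FPKM in Sg-C3 libraries, against 9.64, 7.42 and 7.99 FPKM in Sg-Con libraries. Every Sg-C3 value was below 5 FPKM and every Sg-Con value above 7 (log2 fold change -1.14, SE 0.16, adjusted p = 0.0032). Tpx2, which activates Aurora A on spindle microtubules, averaged 4.82 ± 1.48 FPKM in Sg-C3 and 10.8 ± 2.09 FPKM in Sg-Con libraries (log2 fold change -1.04, adjusted p = 0.00855). Aurka, encoding Aurora A itself, had 5.52, 6.73 and 7.24 FPKM in Sg-C3 libraries, against 10.07, 7.4 and 7.97 FPKM in Sg-Con libraries. Its groups did not overlap but nearly touched (log2 fold change -0.34, SE 0.14, adjusted p = 0.0954).

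The chromosomal passenger complex, which corrects faulty attachments of chromosomes and later guides cytokinesis, had all 3 of its members lower by more than 1 on the log2 scale. Aurkb, its kinase, had the lowest log2 fold change of FPKM + 1 among the 35 genes (by the ratio of mean FPKM Nusap1 was lower), with 3.92, 3.18 and 7.64 FPKM in Sg-C3 libraries, against 15.91, 11.82 and 14.36 FPKM in Sg-Con libraries. Sg-C3 replicate 3 was above the other Sg-C3 libraries but below every Sg-Con library (log2 fold change -1.41, SE 0.26, adjusted p = 0.00694). Birc5, which encodes survivin, averaged 12.6 ± 2.54 FPKM in Sg-C3 and 28.2 ± 6 FPKM in Sg-Con libraries (log2 fold change -1.10, adjusted p = 0.0052). Cdca8, which encodes borealin, averaged 7.13 ± 2.8 and 17.5 ± 3.62 FPKM in the Sg-C3 and Sg-Con libraries (log2 fold change -1.22, adjusted p = 0.00973). Incenp, the scaffold of the complex, is not among the 35 and belongs to a further list of mitosis genes.

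All 6 genes of the spindle checkpoint and of anaphase ubiquitination fell, over a wide span of sizes. Bub1, a checkpoint kinase of the kinetochore, had 2.21, 2.02 and 3.35 FPKM in Sg-C3 libraries, against 6.91, 4.91 and 6.55 FPKM in Sg-Con libraries (log2 fold change -1.02, SE 0.18, adjusted p = 0.00574). Bub1b and Ttk, which encode the checkpoint proteins BUBR1 and MPS1, had log2 fold changes of -0.77 and -0.76, with adjusted p = 0.00936 and 0.00549. Mad2l1, whose product blocks the anaphase activator, was at 9.53, 8.94 and 10.46 FPKM in Sg-C3 libraries, against 12.95 to 13.43 FPKM in Sg-Con libraries. That was a small change with little spread (log2 fold change -0.41, SE 0.09, adjusted p = 0.0128), and it did not pass without Sg-C3 replicate 2 (0.0507) or after median-ratio scaling (0.0514). Cdc20, the anaphase activator itself, had 7.31, 5.14 and 8.16 FPKM in Sg-C3 libraries, against 15.07, 10.69 and 13.09 FPKM in Sg-Con libraries (log2 fold change -0.83, adjusted p = 0.0112). Ube2c, its ubiquitin-conjugating enzyme and, on this scale per length, the member with the highest Sg-Con mean, averaged 21 ± 4.19 FPKM in Sg-C3 and 34.6 ± 4.28 FPKM in Sg-Con libraries (log2 fold change -0.70, adjusted p = 0.0113).

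At the kinetochore, the site where chromosomes bind spindle microtubules, 4 of 5 genes fell and the centromeric histone did not. Ndc80 and Nuf2 encode partners in the complex that holds the microtubule. Ndc80 had 2.3, 2.03 and 3.43 FPKM in Sg-C3 libraries, against 6.81, 5.19 and 6.96 FPKM in Sg-Con libraries, and Nuf2 had 2.35, 2.27 and 3.63 FPKM in Sg-C3 libraries, against 7.35, 5.38 and 6.77 FPKM in Sg-Con libraries. Their log2 fold changes of -1.04 and -1.01 were nearly equal, with adjusted p = 0.00521 and 0.0054. Cenpe, a kinetochore motor, averaged 1.48 ± 0.608 FPKM in Sg-C3 and 3.92 ± 0.627 FPKM in Sg-Con libraries (log2 fold change -1.01, adjusted p = 0.00716). Cenpf, a large protein of the outer kinetochore, had 0.62, 0.52 and 1.04 FPKM in Sg-C3 libraries, against 1.91, 1.38 and 1.54 FPKM in Sg-Con libraries (log2 fold change -0.60, adjusted p = 0.0177). It did not pass without Sg-C3 replicate 1 (0.0606), Sg-C3 replicate 2 (0.0657) or Sg-Con replicate 1 (0.0533). Cenpa, the histone variant that marks the centromere, had 23.01, 21.55 and 21.5 FPKM in Sg-C3 libraries, against 25.73, 19.39 and 23.55 FPKM in Sg-Con libraries. The Sg-C3 values lay within the range of the Sg-Con values (log2 fold change -0.05, SE 0.12, adjusted p = 0.77), and the sign turned to 0.11 after median-ratio scaling, 0.05 after quantile normalization and 0.04 without Sg-Con replicate 1. The FPKM of Cenpa was 10, 10.6 and 6.27 times that of Ndc80 in the 3 Sg-C3 libraries, against 3.78, 3.74 and 3.38 times in the Sg-Con libraries. The Cenpa to Ndc80 ratios follow from the values of both genes above and carry no test.

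**Figure D2:**
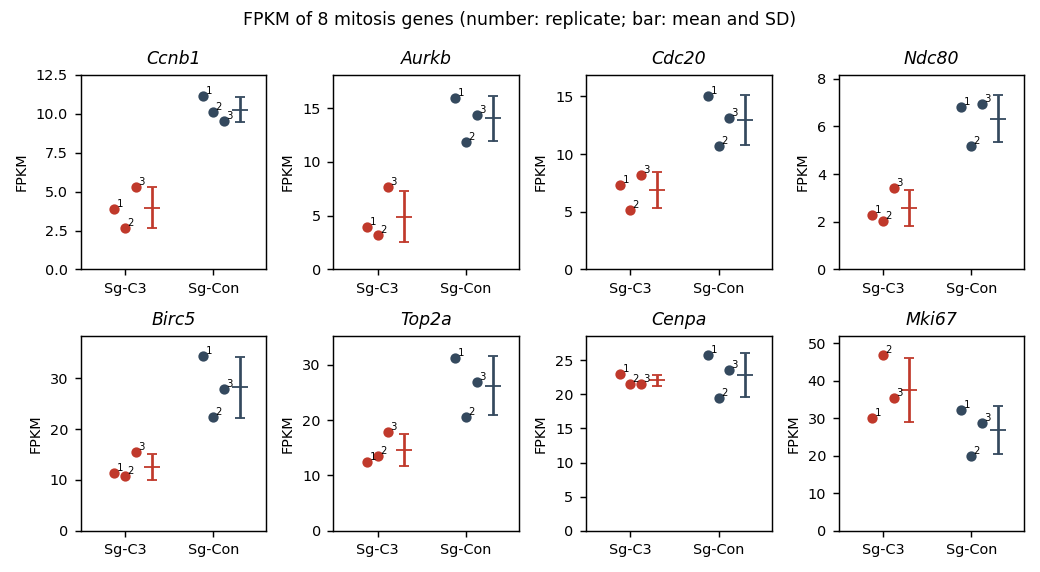
FPKM of 8 mitosis genes, with 1 point per library (the number is the replicate) and the mean with SD beside the points, Sg-C3 left and Sg-Con right in each panel, on axes that start at 0. The groups are apart for Ccnb1, Aurkb, Cdc20, Ndc80, Birc5 and Top2a, overlap for Cenpa, and for Mki67 the Sg-C3 mean of 37.4 FPKM is above the Sg-Con mean of 27 FPKM.

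All 5 spindle motors and microtubule-binding proteins fell. Nusap1, which bundles microtubules near chromosomes, had the lowest ratio of means, with 2.05, 2.06 and 3.64 FPKM in Sg-C3 libraries, against 9.34, 6.54 and 7.52 FPKM in Sg-Con libraries. The Sg-C3 mean was 0.331 of the Sg-Con mean (log2 fold change -1.31, SE 0.20, adjusted p = 0.00381). Kif11, the motor that pushes spindle poles apart, was at 1.87, 1.26 and 2.73 FPKM in Sg-C3 libraries, against 6.25, 4.24 and 4.48 FPKM in Sg-Con libraries. Kif2c, a motor that takes microtubules apart at the centromere, averaged 1.79 ± 0.802 and 4.49 ± 0.649 FPKM in the Sg-C3 and Sg-Con libraries, and Kif4, a chromosome-bound motor, averaged 2.45 ± 0.454 FPKM in Sg-C3 and 4.82 ± 0.41 FPKM in Sg-Con libraries. Kif11, Kif2c and Kif4 had log2 fold changes of -1.03, -1.01 and -0.76 and passed at 0.00887, 0.0102 and 0.00547 after adjustment. Hmmr, encoding a spindle-associated receptor for hyaluronan, changed least of those that fell, with 6.89, 6.05 and 6.74 FPKM in Sg-C3 libraries, against 10.03, 8.07 and 8.6 FPKM in Sg-Con libraries (log2 fold change -0.39, adjusted p = 0.0288). Its call was lost in more alternatives than any other: without Sg-C3 replicate 1 (0.0573), Sg-C3 replicate 2 (0.098), Sg-Con replicate 1 (0.0906) or Sg-Con replicate 3 (0.0604), with title style as a covariate (0.0554), and after quantile normalization (0.103) or median-ratio scaling (0.1).

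All 6 genes of the central spindle and of cytokinesis fell. Anln, which encodes the actin-binding protein anillin of the contractile ring, had the smallest adjusted p of the 35, with 2.58, 1.98 and 3.2 FPKM in Sg-C3 libraries, against 6.74, 6.98 and 6.57 FPKM in Sg-Con libraries. Its Sg-Con values had an SD of 0.206 FPKM, and the groups were far apart (log2 fold change -1.13, SE 0.14, limma adjusted p = 0.00223). Racgap1, which joins the motor Kif23 in the centralspindlin complex, was at 7.59, 6.77 and 11.29 FPKM in Sg-C3 libraries, against 23.65, 16.48 and 19.43 FPKM in Sg-Con libraries (log2 fold change -1.14, SE 0.20, adjusted p = 0.00573). Its partner Kif23 had 5.77, 4.3 and 6.8 FPKM in Sg-C3 libraries, against 10.69, 7.57 and 8.46 FPKM in Sg-Con libraries (log2 fold change -0.59, adjusted p = 0.0329). The Kif23 call was lost without Sg-C3 replicate 1 (0.0753), Sg-C3 replicate 2 (0.0993), Sg-Con replicate 1 (0.0931) or Sg-Con replicate 3 (0.0628) and after quantile normalization (0.0677) or median-ratio scaling (0.0707). Ect2, the exchange factor that activates RhoA at the division plane, Prc1, which bundles midzone microtubules, and Kif20a, a midzone motor, had log2 fold changes of -0.86, -0.85 and -0.84 (adjusted p = 0.00636, 0.00936 and 0.00846).

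Of the 2 genes of the mitotic chromosome 1 fell and 1 did not pass. Top2a, the topoisomerase that untangles sister chromatids, had 12.44, 13.42 and 17.85 FPKM in Sg-C3 libraries, against 31.23, 20.51 and 26.92 FPKM in Sg-Con libraries (log2 fold change -0.80, SE 0.18, adjusted p = 0.0133), and did not pass without Sg-C3 replicate 2 (0.0521). Mki67, which encodes Ki-67, the coat protein of mitotic chromosomes and a common marker of proliferating cells, had 30.1, 46.74 and 35.33 FPKM in Sg-C3 libraries, against 32.22, 19.85 and 28.82 FPKM in Sg-Con libraries. The groups overlapped, and Mki67 was the single gene of the 35 with a positive log2 fold change (0.46, SE 0.22, adjusted p = 0.117). The sign stayed positive in all 13 alternatives, and Mki67 was called in none of them. Mki67 is also among the members with the most reads, an estimated 3701 or more per library. The FPKM of Mki67 was 2.42, 3.48 and 1.98 times that of Top2a in Sg-C3 libraries, against 1.03, 0.968 and 1.07 times in Sg-Con libraries. These ratios were set up after the values were seen and carry no test. The highest Mki67 value came from Sg-C3 replicate 2, which had the lowest value of its group for 29 of the 35 genes.

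**Figure D3:**
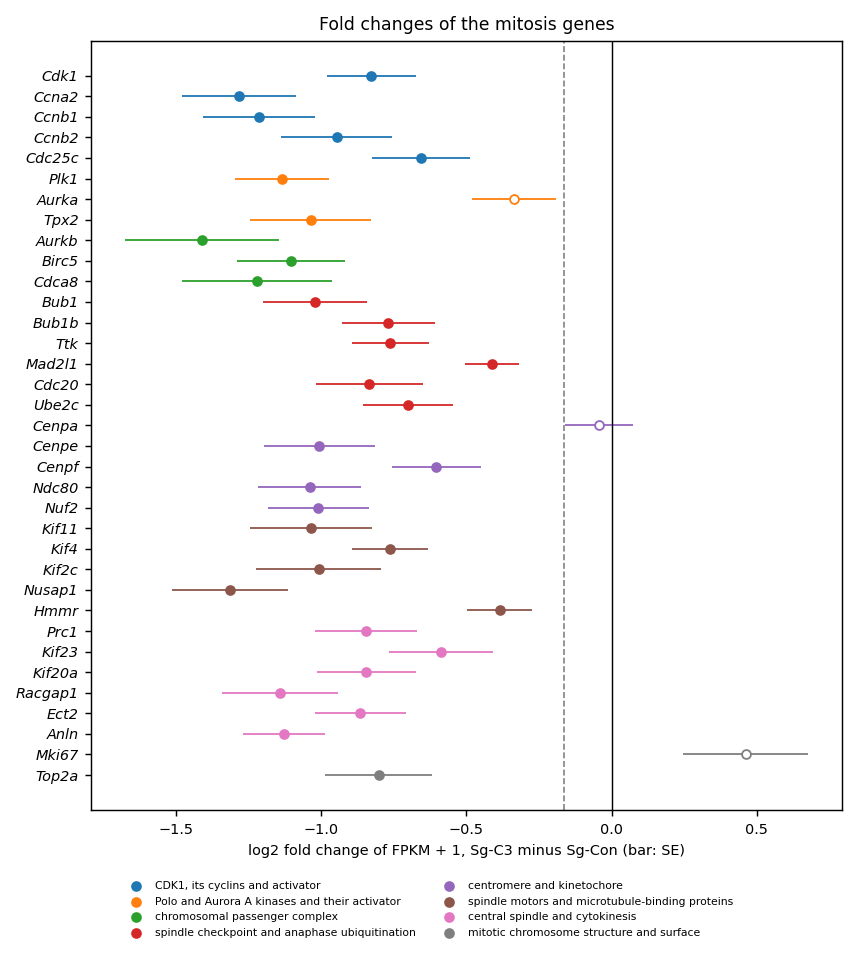
Log2 fold change (FPKM + 1, Sg-C3 minus Sg-Con) of each of the 35 genes with limma's SE, coloured by role, with filled points for adjusted p below 0.05 and open points for the others. The dashed line marks the median of all tested genes at -0.16, and all filled points lie to its left, from -1.41 for Aurkb to -0.39 for Hmmr.

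Within each group the genes also kept a common order of libraries. Sg-C3 replicate 3 was the highest Sg-C3 library for 31 of the 35 genes, and Sg-C3 replicate 2 the lowest for 29. Among Sg-Con libraries replicate 1 was the highest for 30 genes and replicate 2 the lowest for 31. The median log2 level of the 35 genes, relative to each gene's mean over the 6 libraries, was -0.68, -0.87 and -0.16 in Sg-C3 replicates 1, 2 and 3, against 0.75, 0.37 and 0.58 in Sg-Con replicates 1, 2 and 3. The gap between the highest Sg-C3 library and the lowest Sg-Con library was thus smaller than the distance between Sg-C3 replicates 2 and 3. Without Sg-C3 replicate 3 the median log2 fold change of the 35 was -1.02, and without Sg-Con replicate 1 it was -0.78.

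Further genes of mitosis, taken from a list of 106, were mostly lower too. Of 101 that passed the filter, 66 (65.3%) fell and 1 rose, where 31.7% of all tested genes fell, and the median log2 fold change was -0.54. Sgol2a, Cenpk, Oip5, Kif20b and Aspm, counted as lower, passed the filter through Sg-Con libraries alone, so that they were tested only because of their Sg-Con values. Without a filter 66 of the 106 were lower, where 3422 of all 15487 genes were. The genes of spindle and cytokinesis outside the 35, Incenp among them, had 28 of 32 lower, with Pbk, a mitotic kinase, at 3.24 ± 0.455 FPKM in Sg-C3 and 9.38 ± 0.36 FPKM in Sg-Con libraries (log2 fold change -1.30, SE 0.11, adjusted p = 0.00107), and Cdc25b, a CDK-activating phosphatase, at 3.43 ± 0.387 FPKM in Sg-C3 and 7.57 ± 0.421 FPKM in Sg-Con libraries. Condensin and cohesin genes had 13 of 20 lower, including the condensin genes Smc2 (log2 fold change -0.90) and Ncapg2 (-0.83). Other kinetochore genes had 18 of 32 lower, including Cenpi (-0.84). The anaphase-promoting complex, many of whose subunits are made in resting cells too, had 7 of 17 lower, among them Anapc5 (-0.64) and Cdc16 (-0.58), a share of 41.2% that was near the 31.7% of all tested genes. The single gene that rose was Cks2, a small CDK-binding protein, at 37 ± 3.2 FPKM in Sg-C3 and 29 ± 3.37 FPKM in Sg-Con libraries (log2 fold change 0.34, adjusted p = 0.0458). Cks2 was not called without Sg-C3 replicate 1 (0.132), Sg-C3 replicate 2 (0.129), Sg-Con replicate 1 (0.107) or Sg-Con replicate 2 (0.13), without a filter (0.0554) or with title style as a covariate (0.0782). Without Sg-C3 replicate 2 the count of lower genes was 39.

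Most genes on a list for DNA replication, the step before mitosis, fell as well. Of 47, 34 (72.3%) fell and 0 rose (limma; 1 was higher at an unadjusted p under 0.05), where 31.7% of all tested genes fell and 12.7% rose. The median log2 fold change was -0.66. Gmnn, which encodes geminin, the inhibitor of origin relicensing, was at 7.2, 4.49 and 6.32 FPKM in Sg-C3 libraries, against 17.42, 16.24 and 13.72 FPKM in Sg-Con libraries (log2 fold change -1.27, adjusted p = 0.0026). Pole2, a subunit of a replicative polymerase, had 0.88, 0.97 and 1.75 FPKM in Sg-C3 libraries, against 4.17, 4.12 and 3.53 FPKM in Sg-Con libraries (log2 fold change -1.19, adjusted p = 0.00301). Pcna, the sliding clamp and another common proliferation marker, did not pass, at 184 ± 12.7 FPKM in Sg-C3 and 174 ± 20 FPKM in Sg-Con libraries (log2 fold change 0.09, adjusted p = 0.545, or -0.01 without Sg-Con replicate 2). The count of lower genes depended on single libraries: leaving out Sg-C3 replicate 1 gave 21, leaving out Sg-C3 replicate 2 gave 17, leaving out Sg-Con replicate 1 gave 21 and leaving out Sg-Con replicate 3 gave 22.

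Among regulators that act before mitosis more genes fell than rose. Of 42 on the list 39 were tested, and 20 (51.3%) fell and 3 rose, where 31.7% of all tested genes fell and 12.7% rose. Both activators of mitosis genes fell: Foxm1 had 6.45, 5.12 and 7.47 FPKM in Sg-C3 libraries, against 9.76, 9.36 and 10.98 FPKM in Sg-Con libraries (log2 fold change -0.60, adjusted p = 0.0141), and Mybl2, which encodes B-MYB, averaged 2.82 ± 0.503 and 4.81 ± 0.734 FPKM in the Sg-C3 and Sg-Con libraries (-0.60, adjusted p = 0.0165). Mybl2 did not pass without Sg-C3 replicate 2 (0.0562) or Sg-Con replicate 1 (0.0507). In the group of B-MYB, FOXM1, DREAM and E2F genes 12 of 21 (57.1%) fell, with E2f8 (-1.01) and E2f6 (-0.89), encoding repressive E2F factors, having the smallest p-values. Tfdp2, which also fell, passed the filter through Sg-Con libraries alone. Dyrk1a, a kinase that promotes DREAM assembly, was the 1 gene of that group called higher, at 36.4 ± 5.83 FPKM in Sg-C3 and 26.3 ± 3.81 FPKM in Sg-Con libraries (log2 fold change 0.45, adjusted p = 0.0466). That call was lost without Sg-C3 replicate 1 (0.134), Sg-C3 replicate 2 (0.148), Sg-Con replicate 1 (0.119) or Sg-Con replicate 2 (0.127), without a filter (0.0582) and with title style as a covariate (0.0748).

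Among G1 cyclins and kinases 5 of 9 fell, including Ccnd3, a D-type cyclin, at 10.7 ± 1.93 FPKM in Sg-C3 and 20.4 ± 0.856 FPKM in Sg-Con libraries, and its kinase Cdk4, at 59.2 ± 6.5 FPKM in Sg-C3 and 93.9 ± 5.46 FPKM in Sg-Con libraries. Ccnd3 changed by -0.88 (adjusted p = 0.00347) and Cdk4 by -0.66 (adjusted p = 0.00445) on the log2 scale. Of 9 tested CDK inhibitors and related brakes 3 fell and 2 rose, and the 33.3% that fell was close to the 31.7% of all tested genes. Cdkn1b, which encodes the CDK inhibitor p27, had 43.28, 42.71 and 33.34 FPKM in Sg-C3 libraries, against 22.47, 18.37 and 18.67 FPKM in Sg-Con libraries. Each Sg-C3 value was above every Sg-Con value, and the ratio of means was 2.01 (log2 fold change 0.96, SE 0.13, adjusted p = 0.00298). Btg1, an antiproliferative gene, averaged 235 ± 10.7 FPKM in Sg-C3 and 178 ± 16.7 FPKM in Sg-Con libraries (log2 fold change 0.40, adjusted p = 0.0161). Cdkn2c, which encodes the CDK4 and CDK6 inhibitor p18, fell, at 4.88 ± 1.32 and 11.8 ± 1.95 FPKM in the Sg-C3 and Sg-Con libraries (-1.13, adjusted p = 0.00477). Cdkn1a, which encodes p21, did not pass, at 343 ± 57.3 FPKM in Sg-C3 and 265 ± 40.4 FPKM in Sg-Con libraries (log2 fold change 0.37, adjusted p = 0.0955), but did after median-ratio scaling (0.0461) and without Sg-C3 replicate 1 (0.0499).

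**Figure D4:**
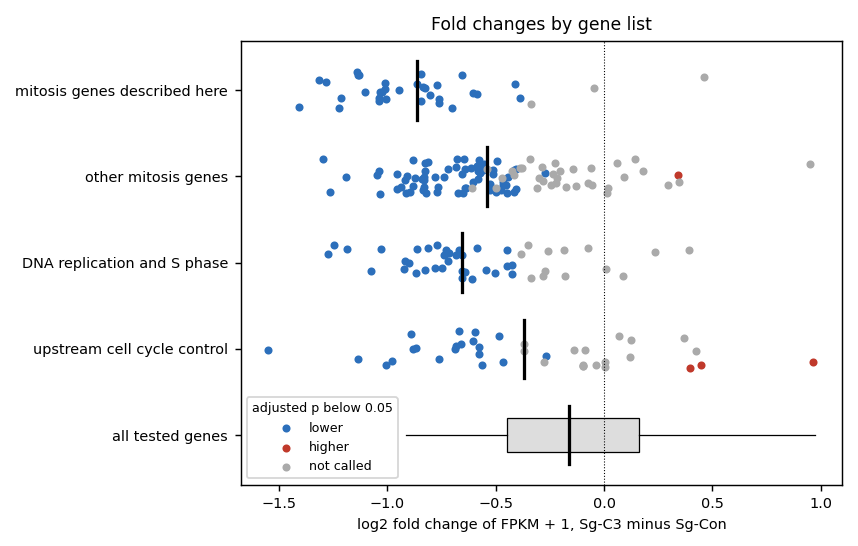
Log2 fold change (FPKM + 1, Sg-C3 minus Sg-Con) of every tested gene of 4 lists, with 1 point per gene, coloured by its call, and a black bar at the median. The bottom box spans the 25th to 75th percentile of all tested genes (-0.45 to 0.16), with lines to the 5th and 95th, and the medians are -0.86 for the 35 genes, -0.54 for other mitosis genes, -0.66 for DNA replication and -0.37 for upstream control.

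Markers of other cell types also differed between the groups, and their part in these results was not tested. Of 14 carcinoma markers 13 were in the table, and they summed to 5.24 to 10.03 FPKM in Sg-C3 libraries, against 35.92 to 66.05 FPKM in Sg-Con libraries. Of the 4 that passed the filter Krt8, Krt20 and Cdh1 fell. Krt8 passed through Sg-Con libraries alone and was at 0.36 FPKM or less in every Sg-C3 library. Epcam, which did not pass the filter, was at 1.14 FPKM or less in every library, and Cldn4 was at 0 in 2 of the libraries. In Sg-Con replicates 1, 2 and 3 the carcinoma sums were 35.92, 66.05 and 39.98 FPKM. They came mostly from Krt8, at 8.92, 21.86 and 12.15 FPKM, and Krt20, at 12.83, 33.62 and 19.94 FPKM. Not every marker had that order. Epcam was at 1.14, 0.37 and 0.51 FPKM and Lgals4 at 4.32, 1.53 and 1.94 FPKM, while Cdh1 was at 3.3, 4.84 and 2.47 FPKM. In Sg-C3 replicates 1, 2 and 3 the carcinoma sums were 9.37, 5.24 and 10.03 FPKM. These differences came mostly from Krt20, at 4.17, 0.38 and 5.27 FPKM. Krt8 had the same order (0.35, 0.26 and 0.36 FPKM), but Krt18 (1.07, 0.23 and 0.19 FPKM) and Cdh1 (0.86, 1.13 and 1.27 FPKM) did not. Lymphocyte markers ran opposite to the mitosis genes: the 13 T cell markers in the table summed to 18.6 to 26.71 FPKM in Sg-C3 and 3.38 to 6.83 FPKM in Sg-Con libraries, and the 12 NK and cytotoxic markers to 33.12 to 41.94 FPKM in Sg-C3 and 1.58 to 4.61 FPKM in Sg-Con libraries, with Cd3g, Ncr1, Klre1, Prf1, Nkg7, Xcl1 and Ifng at 0 in at least 1 library. Neutrophil markers, 11 in the table, summed to 372 to 1316 FPKM in Sg-C3 and 113.9 to 204.1 FPKM in Sg-Con libraries, and dendritic cell markers, 12 in the table, to 40.65 to 67.85 FPKM in Sg-C3 and 5.39 to 11.72 FPKM in Sg-Con libraries. The sums of 13 fibroblast and 5 erythroid markers overlapped between the groups. Single fibroblast markers did differ: of 9 tested, 4 rose (Col3a1, Dcn, Pdgfrb and Fap) and 3 fell (Col1a2, Thy1 and Pdpn). The share that fell, 33.3%, was near the 31.7% of all tested genes, of which 12.7% rose. Pdpn, the largest part of the Sg-Con sums, had 0.287 of its Sg-Con mean in Sg-C3 libraries, and Dcn had 5.19 times its own. The 8 endothelial markers summed to 60.87 to 79.65 FPKM in Sg-C3 and 11.94 to 18.68 FPKM in Sg-Con libraries, of which Pecam1, which rose, made up most in Sg-C3. Without Pecam1 the other 7 summed to 5.98, 7.38 and 4.93 FPKM in Sg-C3 libraries, against 6.19, 7.4 and 7.74 FPKM in Sg-Con libraries, and Cdh5 among them fell (log2 fold change -0.71, limma adjusted p = 0.0291). Cdh5 passed the filter through Sg-Con libraries alone. Among those lists Ly6g, Elane and Camp of neutrophils, Btla of dendritic cells, Emcn and Cldn5 of endothelial cells, and Hbb-bs and Ahsp of erythroid cells were at 0 in at least 1 library. Macrophage markers summed to 10656 to 13313 FPKM in Sg-C3 and 16730 to 18395 FPKM in Sg-Con libraries, with the 4 called members lower. The 33.3% of them called lower was near the 31.7% of all tested genes.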

How the data were processed

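The authors deposited 1 table of FPKM values, 1 per gene and library, with 2 decimals; that the unit is FPKM comes from the column names. Trizol served for extraction per the labels' protocols, which name a TruSeq kit and an MGIEasy kit. Bowtie 0.12.2 and the build mm8 come from the submitters' processing notes, which do not name the program behind the FPKM. A column of gene clusters was not used. The table holds no counts, so depth was estimated from the values of 403 short non-coding genes: with 36 bases taken off the length, 87.2% to 91.9% of values of up to 8 reads per library fell within 0.1 of a whole read. Reads per member use the longest GENCODE M21 coding transcript and are rough.

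The 11198 of 15487 genes that reached 1 FPKM in 3 or more of the 6 libraries were fitted on log2(FPKM + 1) with limma 3.58.1 (R 4.3.3; lmFit, eBayes with trend), with Benjamini-Hochberg adjustment over all of them, and the code was tested on simulated data. Replicates are numbered in accession order. Named genes outside the 35 are those with the smallest p in each group of a list, those called against their group, and a few fixed names, and markers; Incenp and Epcam were added after their values were seen. The members and lists were chosen with earlier results of these data known. Promoter sequences are from RefSeq (GRCm38.p6), the first entry per gene; gene coordinates are not given, since mm8 differs. Other steps used matplotlib 3.10.9, numpy 2.4.6, pandas 2.3.3 and Python 3.11.15. Alternatives were a pseudocount of 0.1, no filter, a mean of at least 5 FPKM, array weights, median-ratio scaling, quantile normalization, title style as a covariate (the title of the third library of each group is written differently), and leaving out each library.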

Additional observations from a re-analysis of the deposited data

How the results depend on the processing

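No paired analysis was possible because the labels give no numbers that the groups share. The count of the 35 genes called lower was 26 to 32 with each library left out in turn (26 without Sg-C3 replicate 2), and their median log2 fold change -1.02 to -0.78. It was 29 to 32 in the other alternatives, except that requiring a mean of 5 FPKM left 23 of the genes, of which 20 fell. The same filter left 53 further mitosis genes, of which 32 fell. Further mitosis genes called higher numbered 0 without a filter, 2 after quantile normalization, 4 after median-ratio scaling, 0 with title style as a covariate, and 0 to 4 with a library left out, when 39 to 74 were lower. DNA replication genes called higher numbered 1 after median-ratio scaling, and those called lower 17 to 38 with a library left out. All tested genes called lower numbered 2133 after median-ratio scaling and 1966 to 3635 with a library left out, and those called higher 889 to 1518. The cause was not tested. The log2 fold change of Cenpa was 0.047 after quantile normalization, 0.114 after median-ratio scaling and -0.155 to 0.040 with a library left out. That of Pcna was -0.011 to 0.147 with a library left out. That of Adgre1 was 0.142 after median-ratio scaling and -0.119 to 0.125 with a library left out. None of the 3 was called in these alternatives. With 3 libraries a group and an estimated 24 reads behind the lowest value, small changes are hard to detect.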

Other observations

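Ccnf, which encodes cyclin F and is one of the further mitosis genes, varied more between libraries of 1 group than between the groups. It had 48.09, 32.65 and 10.89 FPKM in Sg-C3 libraries, against 8.5, 11.28 and 22.29 FPKM in Sg-Con libraries (log2 fold change 0.95, SE 0.54, limma adjusted p = 0.185). Without Sg-C3 replicate 3 it was called higher (log2 fold change 1.54, adjusted p = 0.0199), and in the other alternatives it was not called. The values overlapped, and its order of libraries was unlike that of most mitosis genes, since Sg-C3 replicate 3 was the lowest Sg-C3 library. It was named after its values were seen.

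Wee1, the kinase that holds CDK1 inactive, fell beside CDK1 and its cyclins. It had 2.7, 1.4 and 2.66 FPKM in Sg-C3 libraries, against 7.46, 13.65 and 5.59 FPKM in Sg-Con libraries (log2 fold change -1.55, SE 0.31, limma adjusted p = 0.00826). Its highest value was in Sg-Con replicate 2, which was the lowest Sg-Con library for 31 of the 35 mitosis genes. It was called in all 13 alternatives, with log2 fold changes of -1.89 to -1.23, and was also named after its values were seen.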
